A study of Mus musculus with 4 samples.

Results

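The genes described here encode 10 surface proteins that help or restrain CD4+ helper T cells: Icos, Cd28, Ctla4, Pdcd1, Btla, Lag3, Havcr2, Tigit, Cd200 and Cd226. They were taken by gene name from a table of 54532 genes, and each name matched a row. FPKM are fragments per kilobase of gene length, with each library divided by the library size behind the authors' values. Of the 10 genes, 9 had a mean level of at least 1 FPKM over the 4 libraries and entered the test, and Havcr2 did not. The tested groups were DMF cultures (2 libraries) and control cultures (2 libraries), all of wild-type mouse spleen T cells that started as naive CD4+ cells and were kept for 3 days in conditions that favour T follicular helper (Tfh) cells. Dimethyl fumarate (DMF) is a fumaric acid ester that activates the antioxidant transcription factor Nrf2, and control cultures received no DMF. The dose and the number of animals behind a culture are not stated in the labels used here, and nothing says that replicates were separate cultures or animals, so p-values measure only the spread between these libraries.

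A T cell that meets antigen integrates its receptor signal with signals from these proteins. Cd28 and Icos add to activation through phosphatidylinositol 3-kinase, and Icos is needed to form and keep Tfh cells. Ctla4 binds the same ligands as Cd28 with higher affinity and limits its signal, and Pdcd1, which encodes PD-1, is both an inhibitor and a marker of Tfh cells. Most of the inhibitory genes are induced by activation itself, so their transcripts mark activated cells as well as restrained ones.

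The libraries held 17134385 and 17516953 reads in DMF replicates 1 and 2, and 17171199 and 15900118 reads in control replicates 1 and 2. The library sizes behind the authors' FPKM were 18302380 and 18672223 in the DMF libraries and 17725674 and 13929627 in the controls. That size was below the read total in control replicate 2 alone, so its FPKM run high relative to its reads. The DMF libraries lay close together, with an SD of the log2 difference over tested genes of 0.32, against 0.74 between the controls. Control replicate 2 stood apart, at an SD of 0.85 from each DMF library, while control replicate 1 was at 0.46 and 0.45. Relative to the rest, its values ran high in genes of 579 to 1444 bp, at a median log2 difference of 0.75, and low in the longest (8933 to 40491 bp), at -0.63, while the shortest (11 to 579 bp) lay at -0.04. The 5 CD4 T cell markers summed to 645 and 618 FPKM in the DMF libraries and 699.8 and 1289 FPKM in the controls. Of the 5, 4 lay below both controls (26.8% of all tested genes did), with a median log2 difference of -0.53 (-0.31 without control replicate 2). Cd4 itself was at 103 and 100.3 FPKM in the DMF libraries and 128 and 105 FPKM in the controls.

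The 10 genes had nearly the same summed level in all libraries, but its make-up differed. The sum was 613.8 and 619.8 FPKM in the DMF libraries and 612 and 602 FPKM in the controls. Pdcd1 took 22.1% and 22.6% of that sum in the DMF libraries, against 13.2% and 16.7% in the controls. Ctla4 took 9.90% and 9.47% in the DMF libraries, against 13.9% and 15.8% in the controls. Icos took 5.85% and 5.94% in the DMF libraries, against 8.21% and 8.14% in the controls. For these 3 genes the groups did not overlap. Nor did they for Cd200, at 17.1% and 17.7% in the DMF libraries against 19.3% and 20.9% in the controls. Tigit, at 1.34% and 0.959% in the DMF libraries against 0.542% and 0.701% in the controls, did not overlap either. For levels in FPKM, 53.2% of all tested genes did not overlap between groups. Shares do not depend on a single scaling factor per library. They would change with a correction that shifts genes unequally, as for the length trend of control replicate 2, and none was applied to them. A higher share of 1 gene also lowers those of the others.

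**Figure D1:**
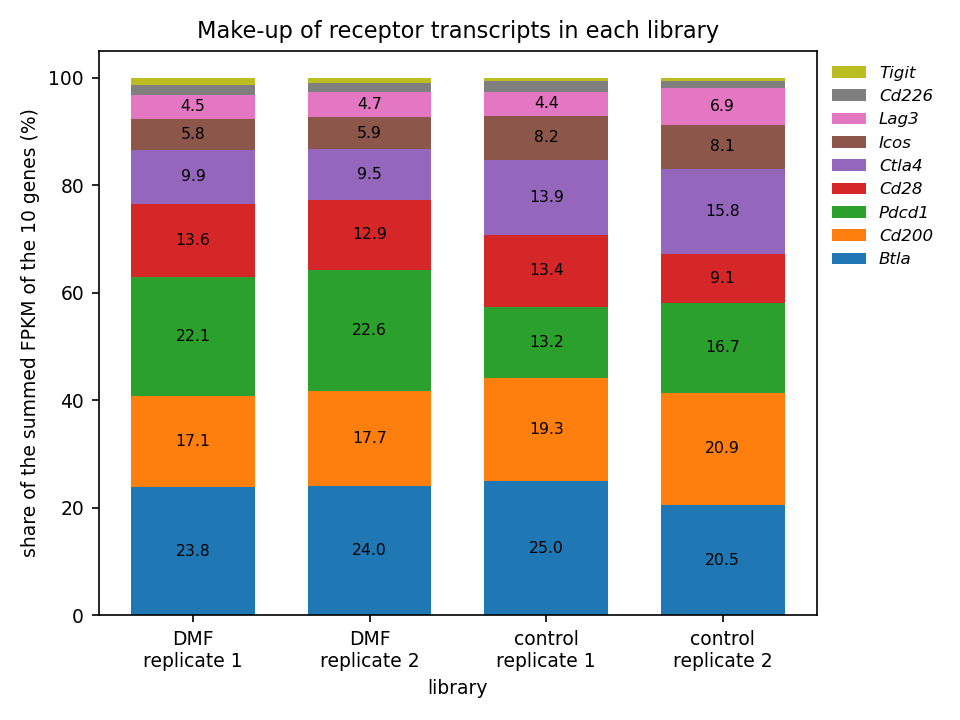
Share of each gene in the summed FPKM of the 10 receptor genes (vertical axis, percent) in each library (horizontal axis), with shares above 3% printed. Havcr2, at no more than 0.0219%, is not drawn. The Pdcd1 and Tigit segments are larger and the Cd200, Ctla4 and Icos segments are smaller in each DMF library than in either control.

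Over single genes, limma with Benjamini-Hochberg adjustment over 12166 genes called 0 of the 9 tested receptor genes at an adjusted p under 0.05, where it called 0% of all genes. limma's voom on reads recovered from the FPKM also called 0. At an unadjusted p under 0.05, limma had 2 of the 9, Tigit higher and Ctla4 lower, against 9.45% of all tested genes. Both DMF libraries lay above both controls for 2 of the 9 (Pdcd1 and Tigit), against 26.4% of all genes, and below both for 3 (Icos, Ctla4 and Cd200), against 26.8%. In all 5 of the 9 genes did not overlap between groups, against 53.2% of all tested genes, so the share among the receptor genes was near that of any gene. Their median log2 difference was 0.10, against -0.01 over all tested genes. Without control replicate 1 limma called 8 of the 9, all but Tigit, against 61% of all tested genes, and without control replicate 2 it called 3 (Icos, Ctla4 and Pdcd1), against 8.28%. In those fits the spread comes from the DMF libraries alone, which lay closer together than the controls, so only their differences are given below.

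Among the stimulating receptors, Icos was lower in both DMF libraries, while Cd28 and Cd226 overlapped between groups. Icos (ENSMUSG00000026009, GRCm38 chromosome 1, 60977927 to 61000320, plus strand, protein coding) was at 35.9 and 36.8 FPKM in the DMF libraries, against 50.2 and 49.0 FPKM in the controls. On the authors' FPKM scale the gap between groups was many times the gap within either. The reads were 2253 and 2359 in the DMF libraries and 3054 and 2339 in control replicates 1 and 2, so this gap depends on the scaling. The log2 difference was -0.44 ± 0.18 (SE, n = 2 per group), a 95% interval of -0.92 to 0.04, with a limma adjusted p of 0.548. Leaving out control replicate 1 gave -0.42 and leaving out control replicate 2 gave -0.46. Scaled by recovered read totals the difference was -0.28, with both DMF libraries still below both controls. Under quantile normalization the difference was -0.21 and the groups overlapped. A gene of unconfirmed status, Gm37039, lies inside the Icos interval and had at most 1.11 FPKM.

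Cd28 (ENSMUSG00000026012, GRCm38 chromosome 1, 60716800 to 60773359), the main costimulatory receptor of naive T cells, was at 83.3 and 80.2 FPKM in the DMF libraries, against 82.0 and 54.8 FPKM in the controls. Control replicate 1 matched the DMF libraries and control replicate 2 lay below them. The log2 difference was 0.28 ± 0.27 (SE), with a 95% interval of -0.45 to 1.02, was 0.57 without control replicate 1 and was -0.0046 without control replicate 2. Cd226 (ENSMUSG00000034028, chromosome 18, 89197431 to 89270201 as deposited), a costimulatory receptor for the poliovirus receptor Pvr, had a lower level. It was at 11.4 and 10.5 FPKM in the DMF libraries, against 13.1 and 7.07 FPKM in the controls, so that the controls lay on either side. Its log2 difference of 0.16 ± 0.32 (SE) was 0.56 against control replicate 2 alone and -0.25 against control replicate 1 alone.

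Among the inhibitory receptors, Ctla4 was lower and Pdcd1 and Tigit were higher in each DMF library than in either control. Ctla4 (ENSMUSG00000026011, GRCm38 chromosome 1, 60887000 to 60915832, plus strand), which removes and blocks the Cd28 ligands, was at 60.8 and 58.7 FPKM in the DMF libraries, against 85.0 and 95.3 FPKM in the controls. The level was on average 1.51 times as high in control as in DMF cultures, from 2554 to 3509 reads per library. The log2 difference was -0.58 ± 0.20 (SE, n = 2 per group; limma adjusted p = 0.51), and 22.7% of tested genes differed at least as much. It was -0.67 without control replicate 1, -0.50 without control replicate 2 and -0.34 once the trend over gene lengths was removed. A processed pseudogene, Rpl18-ps1, lies inside the Ctla4 interval and had at most 2.19 FPKM.

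Pdcd1 (ENSMUSG00000026285, GRCm38 chromosome 1, 94038305 to 94052553, minus strand) was at 136 and 139.9 FPKM in the DMF libraries, against 80.7 and 100.3 FPKM in the controls. Both DMF libraries lay well above the higher control, with a mean ratio of 1.52 between DMF and control cultures. The log2 difference was 0.61 ± 0.23 (SE, n = 2 per group; limma adjusted p = 0.533), with a 95% interval of -0.02 to 1.24. Against control replicate 2 alone it was 0.45, and against control replicate 1 alone 0.76. Tigit (ENSMUSG00000071552, GRCm38 chromosome 16, 43648867 to 43664146, minus strand), an inhibitory receptor that competes with Cd226 for Pvr, was at 8.20 and 5.94 FPKM in the DMF libraries, against 3.31 and 4.22 FPKM in the controls. These levels come from 138 and 102 reads in the DMF libraries and 54 reads in each control. Tigit had the largest difference of the 9 tested genes, a log2 difference of 0.75 ± 0.24 (SE; limma adjusted p = 0.487), and the mean ratio in FPKM was 1.88. Set against control replicate 2 alone its difference was 0.62, and against control replicate 1 alone 0.89.

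The promoter windows of Ctla4, Pdcd1 and Tigit are shown because these genes had the largest differences and lie in opposite directions. Each line gives the 250 bases before the RefSeq start, on the gene's own strand (GRCm38.p6), at chr1:60908775-60909024 (plus) for Ctla4, chr1:94052554-94052803 (minus) for Pdcd1 and chr16:43664185-43664434 (minus) for Tigit. Capitals mark matches on either strand to TGACNNNGC (the core of the antioxidant response element that Nrf2 binds), TGANTCA (AP-1), TTCNNNGAA (STAT) or GGAAA (the core bound by NFAT factors, which carry the antigen receptor signal). No matches overlap in these windows. The bases after the RefSeq start were found near the start of a GENCODE M21 transcript for Ctla4 and Pdcd1, but in none for Tigit. The Ctla4 window lies inside the deposited Ctla4 interval.
Ctla4: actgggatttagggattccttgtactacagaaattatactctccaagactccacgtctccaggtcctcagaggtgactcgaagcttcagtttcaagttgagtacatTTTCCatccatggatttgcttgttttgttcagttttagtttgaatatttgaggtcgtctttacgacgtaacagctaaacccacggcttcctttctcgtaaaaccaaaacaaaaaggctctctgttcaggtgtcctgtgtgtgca
Pdcd1: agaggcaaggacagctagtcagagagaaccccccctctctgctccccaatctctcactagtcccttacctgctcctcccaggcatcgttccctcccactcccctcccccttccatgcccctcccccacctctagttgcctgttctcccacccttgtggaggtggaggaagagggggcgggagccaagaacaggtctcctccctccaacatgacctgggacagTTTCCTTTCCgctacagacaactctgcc
Tigit: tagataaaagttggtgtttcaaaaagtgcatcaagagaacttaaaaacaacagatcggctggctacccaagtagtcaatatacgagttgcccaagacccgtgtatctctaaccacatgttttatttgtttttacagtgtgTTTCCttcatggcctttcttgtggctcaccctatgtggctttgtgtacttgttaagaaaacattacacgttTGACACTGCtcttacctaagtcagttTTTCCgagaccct

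Ctla4 held 1 match, to the NFAT core, and Pdcd1 held 2 adjoining matches to the same core, TTTCC on the printed strand, at 28 to 24 and 23 to 19 bases before the start. Tigit held 2 matches to that core and 1 to the antioxidant response element core, TGACACTGC. The latter lies 39 to 31 bases before the RefSeq start, which matched no GENCODE transcript, so this distance rests on RefSeq alone. Windows were at hand for 6 of the 10 genes. Of these, 3 held the NFAT core and 2 the antioxidant response element core, Tigit and Btla. Among 32817 RefSeq promoter windows of this length 55.6% held the NFAT core, 10.2% the antioxidant response element core, 6.75% the AP-1 motif and 7.01% the STAT motif. A match is a description of the letters and no evidence of binding.

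The other inhibitory receptors overlapped between groups. Btla (ENSMUSG00000052013, GRCm38 chromosome 16, 45224315 to 45257670), a receptor for the tumour necrosis factor receptor family member Tnfrsf14, had the highest level of the 10 genes in 3 of 4 libraries. It was at 146 and 149 FPKM in the DMF libraries, against 153 and 123 FPKM in the controls, a log2 difference of 0.10 ± 0.24 (SE), with a 95% interval of -0.55 to 0.75. Control replicate 1 was above both DMF libraries and control replicate 2 below them. Without control replicate 1 its difference was 0.25 and without control replicate 2 it was -0.05.

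Lag3 (ENSMUSG00000030124, GRCm38 chromosome 6, 124904361 to 124911705), which binds MHC class II, was at 27.6 and 29.2 FPKM in the DMF libraries, against 26.9 and 41.6 FPKM in the controls. Only control replicate 2 stood apart. The log2 difference was -0.23 ± 0.27 (SE), with a 95% interval of -0.95 to 0.49, was -0.54 without control replicate 1 and was 0.07 without control replicate 2. Havcr2 (ENSMUSG00000020399, GRCm38 chromosome 11, 46454935 to 46481255), which encodes TIM-3, a receptor of strongly stimulated and exhausted T cells, was near the limit of detection. It had 2 and 4 reads in the DMF libraries and 2 and 5 reads in the controls, where a count of 0 would still allow 3 reads. No difference could be detected at this depth.

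Cd200 (ENSMUSG00000022661, GRCm38 chromosome 16, 45382135 to 45409053), a surface ligand that inhibits cells bearing Cd200r1 and is high on Tfh cells, was at 105 and 109.6 FPKM in the DMF libraries, against 118 and 126 FPKM in the controls. The groups did not overlap, but the gap between them was of the size of the gap between the controls. The log2 difference was -0.18 ± 0.21 (SE, n = 2 per group; limma adjusted p = 0.671), and 69.8% of tested genes differed at least as much. Against control replicate 2 alone it was -0.23, and against control replicate 1 alone -0.14. Scaled by recovered read totals it was -0.02 with overlapping groups, and under quantile normalization it was 0.21.

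**Figure D2:**
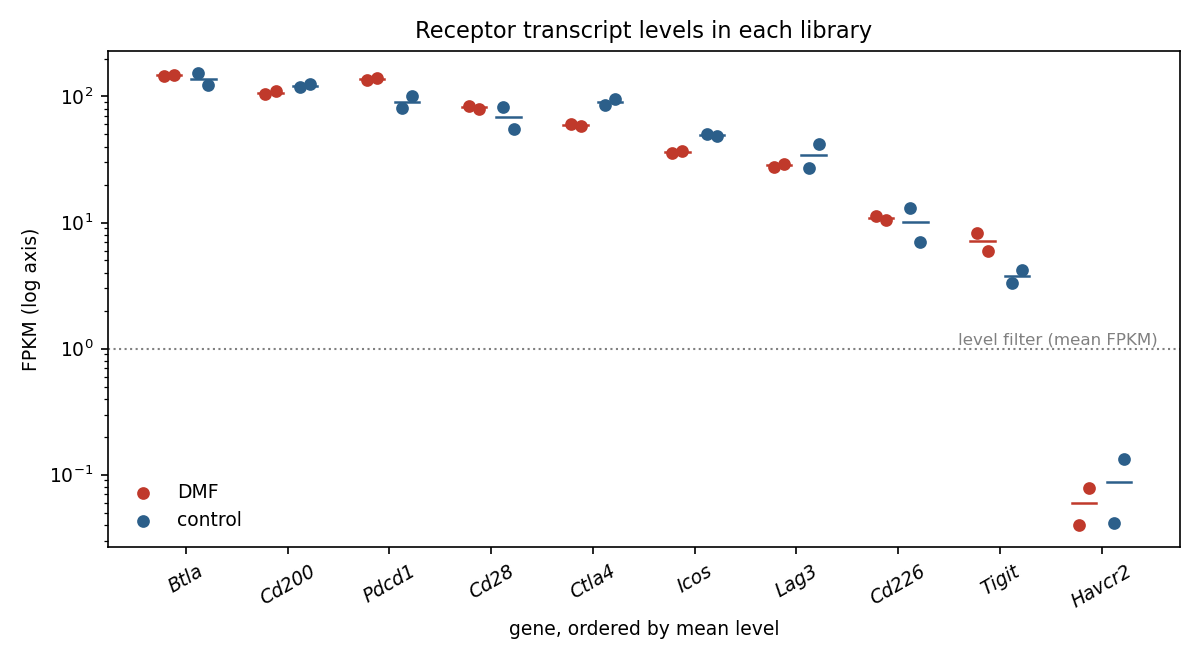
Level of each receptor gene in FPKM (vertical log axis), genes ordered by mean level (horizontal axis), with DMF libraries in red left of control libraries in blue, points for libraries and bars for group means. Pdcd1 and Tigit are higher, and Cd200, Ctla4 and Icos lower, in each DMF library than in either control. Havcr2 is far under the dotted level filter.

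FPKM is per length, so levels of different genes were set side by side within a library, with the limit that control replicate 2 has a length trend and that Cd28 (6122 bp) is longer than Ctla4 (2330 bp) and Pdcd1 (1930 bp). In both DMF libraries the order was Btla, Pdcd1, Cd200, Cd28, Ctla4, Icos, Lag3, Cd226, Tigit and Havcr2. Pdcd1 ranked 2 in both DMF libraries, 5 in control replicate 1 and 3 in control replicate 2. Ctla4 ranked 5 in both DMF libraries, under Cd28, and 3 and 4 in the controls, above Cd28 in each. From Icos at rank 6 downward the order was the same in all 4 libraries. In the controls Ctla4 and Pdcd1 averaged 90.1 ± 7.31 and 90.5 ± 13.8 FPKM (SD, n = 2), a gap smaller than their spread, and Cd28, at 68.4 ± 19.3 FPKM, was not clear of either. In DMF cultures Pdcd1 at 138 ± 2.89 FPKM and Btla at 147 ± 1.99 FPKM (SD, n = 2) were neighbours whose libraries did not overlap.

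Ratios between receptors that share ligands or act against each other were compared within each library. The level of Ctla4 was 0.729 and 0.732 times that of Cd28 in the DMF libraries, against 1.04 and 1.74 times in the controls. On the log2 scale this ratio differed by -0.87 between DMF and control cultures, and both DMF libraries lay below both controls. The difference was -1.23 without control replicate 1, -0.50 without control replicate 2 and -0.53 with the gene length trend removed. The Icos to Cd28 ratio was 0.431 and 0.459 in the DMF libraries, against 0.612 and 0.894 in the controls, a log2 difference of -0.72, again without overlap. It was -0.99 without control replicate 1, -0.45 without control replicate 2 and -0.51 with the length trend removed. Ctla4 to Icos overlapped in FPKM, at 1.69 and 1.59 in the DMF libraries and 1.69 and 1.95 in the controls.

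For Tigit to Cd226, the pair that competes for Pvr, the level ratio was 0.722 and 0.567 in the DMF libraries, against 0.253 and 0.597 in the controls, which overlapped. Pdcd1 to Cd28 also overlapped, at 1.63 and 1.74 in the DMF libraries and 0.984 and 1.83 in the controls. With the length trend removed neither overlapped, with log2 differences of 0.67 for Tigit to Cd226 and 0.72 for Pdcd1 to Cd28. Leaving out control replicates 1 and 2 in turn gave 0.05 and 1.14 for Tigit to Cd226, and -0.11 and 0.77 for Pdcd1 to Cd28. An exact two-sided permutation test over the 4 libraries gave p = 0.33 for the first 3 ratios, the smallest value that 2 against 2 libraries allow, 0.667 for Tigit to Cd226 and 1 for Pdcd1 to Cd28 (Benjamini-Hochberg adjusted over the 5 ratios, 0.556, 0.833 and 1). For Ctla4 to Icos, whose difference was -0.15, the p was 0.67 with a pseudocount of 0.1 and 1 with the length trend removed.

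**Figure D3:**
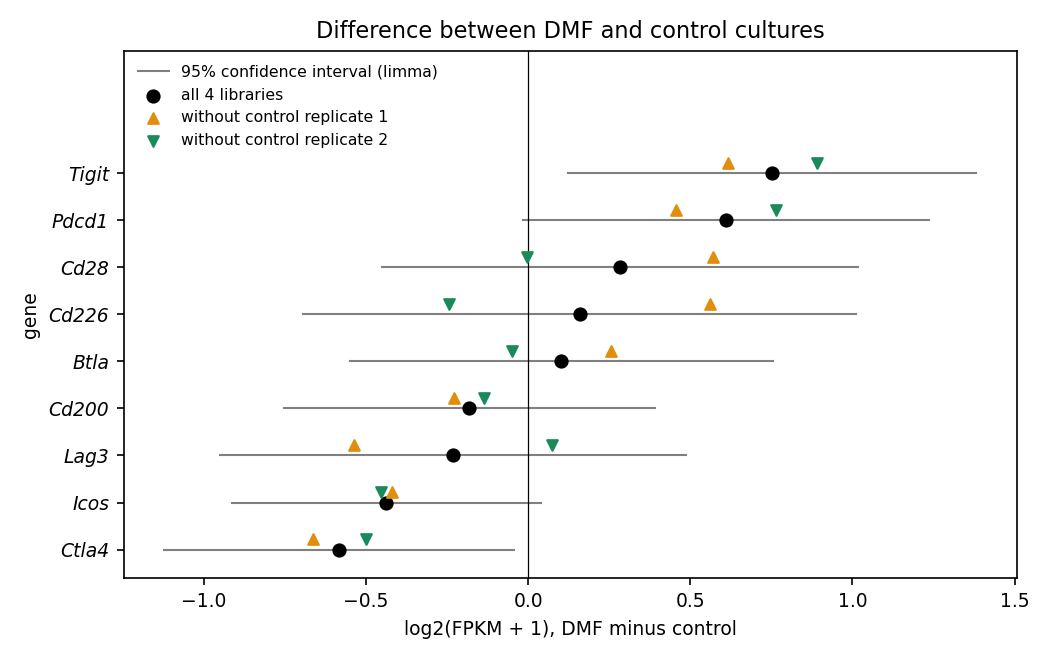
Difference between DMF and control cultures on the log2(FPKM + 1) scale (horizontal axis) for the 9 tested receptor genes (vertical axis), with the 95% interval of limma over all 4 libraries and triangles for fits that left out 1 control. For Tigit, Pdcd1, Cd200, Icos and Ctla4 the triangles lie on the same side of 0 as the black point. They must, as the groups did not overlap for these genes. For Cd28, Cd226, Btla and Lag3, which overlapped, the triangles lie on both sides of 0.

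The ligands of these receptors, which T cells and any B cells in a culture can express, lay in both directions. Of 16 ligand genes 10 were tested, with 0 called by limma, 2 above both controls and 3 below, near the 26.4% and 26.8% of all tested genes, and a median log2 difference of 0.09 (-0.13 against control replicate 2 alone, 0.14 against control replicate 1 alone). H2-Aa, an MHC class II chain and Lag3 ligand, was at 15.1 ± 0.011 FPKM in DMF and 7.06 ± 3.94 FPKM in control cultures (SD, n = 2; limma adjusted p = 0.521), a log2 difference of 1.09 with 0.57 against control replicate 2 alone and 1.61 against control replicate 1 alone. Cd80, a ligand of Cd28 and Ctla4, was at 17.3 ± 0.179 FPKM in DMF and 23.8 ± 0.482 FPKM in control cultures (SD, n = 2; limma adjusted p = 0.532). Cd274, which encodes the PD-1 ligand PD-L1, was at 61.4 ± 2.75 FPKM in DMF and 45.6 ± 8.40 FPKM in control cultures (limma adjusted p = 0.561), a log2 difference of 0.43 that was 0.25 without control replicate 2. The other PD-1 ligand gene, Pdcd1lg2, averaged 33.6 ± 0.569 FPKM in DMF cultures and 29.6 ± 12.9 FPKM in control cultures (SD, n = 2), with both DMF libraries between the controls. Lgals9, which encodes the TIM-3 ligand galectin-9, was at 31.4 ± 1.84 FPKM in DMF and 53.7 ± 20.7 FPKM in control cultures, a log2 difference of -0.70 that was -0.31 without control replicate 2. Icosl, the Icos ligand, did not reach the filter on levels; its counts were 16 and 19 reads in the DMF libraries and 91 and 38 reads in the controls.

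Of 11 further receptors of T cells, 7 were tested, 0 were called by limma, 6 lay below both controls (26.8% of all tested genes did) and 0 above (26.4% did), and the median was -0.36. Cd2, an adhesion and costimulatory receptor, was at 57.9 and 59.4 FPKM in the DMF libraries, against 135 and 246 FPKM in the controls (log2 difference -1.62 ± 0.35, SE; limma adjusted p = 0.331; -1.19 without control replicate 2). Cd160, which shares the ligand Tnfrsf14 with Btla, was at 1.34 and 1.03 FPKM in the DMF libraries, against 2.37 and 3.70 FPKM in the controls (limma adjusted p = 0.476). The log2 differences of Cd101 and Vsir, inhibitory receptors both, were -0.49 and -0.36. These further receptors were chosen with earlier results of these data known, so the share below both controls is no evidence of enrichment.

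Of 22 signalling genes, all tested, limma called 0, 7 lay above both controls and 9 below (26.4% and 26.8% of all tested genes did), and the median was -0.03. Ptpn11, which encodes SHP-2, a phosphatase recruited by PD-1 and Btla, was at 36.2 and 36.6 FPKM in the DMF libraries, against 24.9 and 13.5 FPKM in the controls (log2 difference 0.95 ± 0.33, SE; limma adjusted p = 0.511; 0.53 without control replicate 2). Dok2, an adaptor that damps antigen receptor signals, was at 20.4 ± 1.74 FPKM in DMF and 40.7 ± 14 FPKM in control cultures (SD, n = 2), a log2 difference of -0.92 that was -0.57 without control replicate 2. Adam10, a protease that sheds Lag3 from the surface, was at 28.9 and 29.6 FPKM in the DMF libraries, against 24.8 and 15.2 FPKM in the controls, and its log2 difference of 0.57 was 0.23 without control replicate 2. Prkcq, a kinase downstream of Cd28, was at 20.8 ± 0.327 FPKM in DMF and 26.1 ± 0.283 FPKM in control cultures.

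Of 13 transcription factors known to act on receptor genes in mouse T cells, 12 were tested, limma called 0, 5 lay above both controls and 4 below (26.4% and 26.8% of all tested genes did), and the median was 0.00 (0.39 against control replicate 2 alone, -0.20 against control replicate 1 alone). At an unadjusted limma p under 0.05 there were 6 of the 12, 4 higher and 2 lower, against 9.45% of all tested genes. The list was chosen with earlier results of these data known, so this share is no evidence of enrichment. Nr4a1, a factor induced by the antigen receptor, was at 14.6 and 13.6 FPKM in the DMF libraries, against 40.0 and 47.6 FPKM in the controls (log2 difference -1.56 ± 0.19, SE; limma adjusted p = 0.196). Tox was at 7.71 ± 0.343 FPKM in DMF and 3.60 ± 0.394 FPKM in control cultures, and its relative Tox2 at 14.7 ± 1.86 FPKM in DMF and 8.46 ± 0.535 FPKM in control cultures (SD, n = 2). Maf, which with Blimp-1 drives several inhibitory receptors in mouse T cells, was at 9.67 ± 1.35 FPKM in DMF and 3.68 ± 1.31 FPKM in control cultures.

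**Figure D4:**
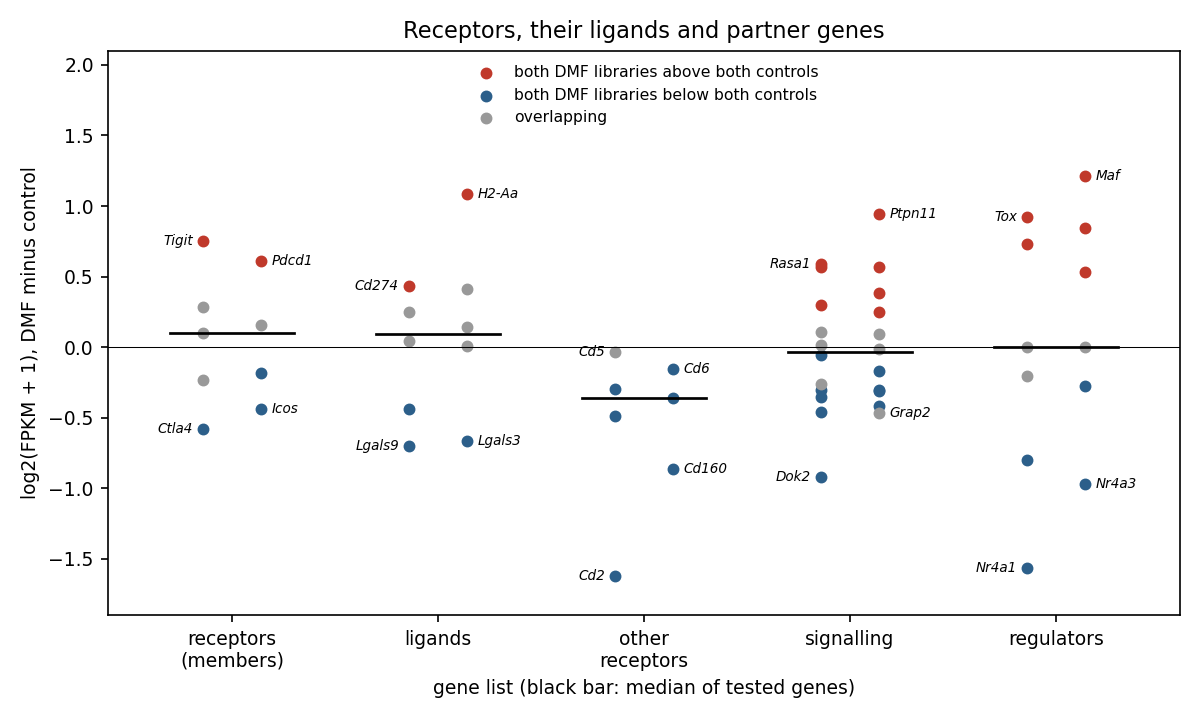
Log2 difference between DMF and control cultures (vertical axis) for tested genes of each list (horizontal axis), with red and blue for genes whose DMF libraries both lie above or below both controls, grey for overlapping genes, and black bars for medians. The bar of the 7 other receptors is at -0.36 and those of the remaining lists lie between -0.03 and 0.10.

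Markers of other cells also differed between libraries, and their part in the results was not tested. In bulk RNA, fewer cells of a type and less RNA per cell cannot be told apart. Regulatory T cells carry much Ctla4, Icos and Tigit, and their 4 markers summed to 98.5 and 95.2 FPKM in the DMF libraries, against 179 and 147 FPKM in the controls, mostly Il2ra, which activated T cells also express. Lrrc32, which holds latent TGF-beta at the surface of regulatory T cells, was at 0.385 and 0.114 FPKM in the DMF libraries, against 6.96 and 5.51 FPKM in the controls. Foxp3, their defining factor, was at 0.26 and 0.188 FPKM in the DMF libraries, against 1.10 and 0.612 FPKM in the controls. The remaining marker, Ikzf2, overlapped between groups, at 0.790 and 0.719 FPKM in the DMF libraries and 1.22 and 0.692 FPKM in the controls. CD8 T and NK cells can carry Lag3, Tigit, Cd226 and Pdcd1, and their 6 markers summed to 2.99 and 2.92 FPKM in the DMF libraries, against 12.9 and 21.3 FPKM in the controls. All 3 of those tested lay below both controls (26.8% of all tested genes did), and Ncr1 and Klrb1c were listed at 0 in every library. B cells express Btla, Cd200, Cd80 and MHC class II. Of the 6 B cell markers tested, 5 lay above both controls (26.4% of all tested genes did) and Ighm below, and the 7 summed to 87.4 and 85.8 FPKM in the DMF libraries, against 80.9 and 121 FPKM in the controls, mostly Ighm. The 6 myeloid markers summed to 7.92 and 6.44 FPKM in the DMF libraries, against 7.51 and 9.18 FPKM in the controls.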

How the data were processed

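The authors deposited 1 table of FPKM values, which per the file headers also holds each gene's name, position and length. Of tools and builds, the submitters' processing notes list edgeR (role not stated) and mm8, and the aligner and counter are not stated in the sources used here. Coordinates of 9 of the 10 genes equal those of GENCODE M21, so they are given as GRCm38; those of Cd226 differ and are given as deposited. The product of FPKM and gene length was a whole multiple of 1 step per library for 100% of values (within 0.01), and these multiples were taken as reads.

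The test was limma 3.58.1 (lmFit, eBayes with a trend) in R 4.3.3, fitted two-sided to log2(FPKM + 1) as DMF minus control, without covariates, over the 12166 genes whose mean FPKM reached 1, Benjamini-Hochberg adjusted with a threshold of 0.05. This scale understates changes of low genes. The fit was also run on simulated counts that lacked the spread between controls and the length trend seen here. That run does not show how the fit performs on these libraries. Ratios were compared by an exact permutation test. Named genes are the 10 receptors, every marker that bears on them and, from each list, up to 4 tested genes with the smallest p; Icosl and Pdcd1lg2 were chosen after their values were seen. The members and lists were chosen with earlier results of these data known. The limit of 3 reads behind a count of 0 covers counting error only. Promoters are RefSeq's (GRCm38.p6). The closing section gives the 15 alternatives.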

Additional observations from a re-analysis of the deposited data

How the results depend on the processing

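The 15 alternatives changed the pseudocount (0.1, 0.5), the filter (none, or mean FPKM from 5) or the scaling (trimmed mean, quantile, recovered read totals), or used eBayes without a trend, voom, values freed of the length trend, the replicate block, or 3 of the 4 libraries. Over them Icos, Ctla4, Pdcd1 and Tigit kept their direction in all, from -0.46 to -0.21, -0.67 to -0.27, 0.45 to 1.01 and 0.55 to 1.07 on the log2 scale. As their groups did not overlap, leaving out a library or changing the pseudocount could not change that direction. The filter, eBayes without a trend and the replicate block left the difference itself as it was. Only the scalings, voom and removal of the length trend could have changed it. Over the 9 receptor genes 118 values kept direction and side of the threshold, 11 passed it and 6 changed sign. Scaling by recovered read totals moved the median of all tested genes from -0.01 to 0.12, and relative to that median Icos and Ctla4 were still lower and Pdcd1 and Tigit still higher. Under quantile normalization 4 receptor genes lay above both controls and 1 below, against 29.7% and 24.1% of all tested genes, and Cd200 was at 0.21. With the gene length trend removed Lag3 was at 0.045.

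With the replicate number as a block (replicate block) limma called 552 genes over the whole table, 4.54% of those tested. It called 0 of 9 receptor genes, 1 of 10 ligands, 1 of 7 further receptors, 0 of 22 signalling genes and 2 of 12 regulators. The labels do not say that a number marks a shared animal or day, and same-numbered libraries deviated with a correlation of -0.02 over genes.

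Leaving out 1 library gave 6 to 7420 genes called over the whole table, the highest without control replicate 1, 1007 without control replicate 2 and 8 and 6 without DMF replicates 1 and 2. Receptor genes called ranged over 0 to 8, with 8 without control replicate 1, 3 without control replicate 2 (Icos, Ctla4 and Pdcd1) and 0 without either DMF library. Receptor genes whose DMF values in the fit lay above every control left in it numbered 2 to 5, where 32.2% to 43.6% of all tested genes did. Those below numbered 3 to 5, where 32.8% to 49.0% of all tested genes were below. Calls in the ligand, further receptor, signalling and regulator lists are not given for these fits, which leave 1 library in a group. Cd28 ranged over -0.0046 to 0.57, Btla over -0.050 to 0.25, Lag3 over -0.54 to 0.073, Cd226 over -0.25 to 0.56, and the Pdcd1 to Cd28 ratio over -0.11 to 0.77. The cause of these shifts was not tested. In fits with a lone control the spread comes from the DMF libraries alone, which lay closer together than the controls, so their p-values are too small if controls vary more. With 54 reads in each control, counting error limits Tigit, and Havcr2 could not be compared.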

Other observations

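Cd28, Ctla4 and Icos lie beside each other on the plus strand of chromosome 1, and their neighbours did not share 1 direction. Raph1, on one side of Cd28, was at 4.98 and 4.76 FPKM in the DMF libraries, against 6.54 and 2.81 FPKM in the controls. The processed pseudogene Eif4a-ps4, between Raph1 and Cd28, was at 144 and 150 FPKM in the DMF libraries, against 165 and 186 FPKM in the controls. Abi2, beyond Raph1, was at 4.54 and 3.89 FPKM in the DMF libraries, against 3.55 and 2.39 FPKM in the controls. The noncoding gene 2310016D23Rik, between Cd28 and Ctla4, was at 4.22 and 2.48 FPKM in the DMF libraries, against 4.51 and 4.63 FPKM in the controls. No gene within 250000 bp of these was called by limma, where 0 genes were called in all.

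Timd2, a gene of the TIM family that lies near Havcr2 on chromosome 11, was chosen after its values were seen. It was at 0.503 and 0.339 FPKM in the DMF libraries, against 3.09 and 3.66 FPKM in the controls, a log2 difference of -1.62, while Havcr2 itself was barely detected.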
